A study of Mus musculus with 2 samples.

Results

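The regions described here are the H3K9me2 peaks of activated mouse B cells that lay outside chromosomes 1 to 19, X and Y, on unplaced or patch scaffolds and on the mitochondrial genome. They were chosen by the sequence name in the peak lists alone, and there were 187 of 31810 peaks in the wild-type library (WT, 0.588% of the list) and 198 of 32347 in the knockout library (KO, 0.612%), or 385 of 64157 in all. Both libraries came from activated B cells of the C57BL/6 strain and were made by CUT&Tag, in which an antibody to the dimethylated lysine 9 of histone H3 (H3K9me2) guides a transposase that cuts and tags the marked chromatin. One library was from mice of genotype WT and the other from mice labelled jmjd1c B KO. Jmjd1c belongs to a family of jumonji proteins with H3K9 demethylases among its members. The labels give no Cre driver, activating stimulus, age or number of pooled animals. Peak positions hold no expression values, so neither the cell type nor the loss of Jmjd1c was checked here.

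H3K9me2 is written mainly by the methyltransferases G9a and GLP and covers silent, gene-poor chromatin. Scaffolds are stretches of sequence that the mouse assembly could not give a position on a chromosome, often because they are repetitive or duplicated. Patch scaffolds hold corrected or alternative versions of sequence that may also be on a chromosome. A read from sequence present in more than 1 copy cannot be placed with certainty. Mitochondrial DNA is not wrapped in histones and therefore carries no H3K9me2 of its own, while the nuclear chromosomes hold old copies of pieces of it.

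Peaks were called from 33474010 tags in WT and 34502392 in KO. The caller extended each tag to a fragment length d of 292 bp in WT and 189 bp in KO, so widths are given after subtraction of d, and pileup (the depth of extended tags at a peak) was only compared within a list. Fold enrichment, the authors' ratio of pileup to a background set by the caller, was likewise ranked only within its list. The background behind each value is not listed. It need not be that of the surrounding 10 kb, above all for weak peaks, and its part in the ranks was not tested. Each genotype had 1 library, so no difference has a replicate check, no p-value was computed, and the 95% intervals cover counting error only.

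Scaffolds carried 183 WT and 194 KO peaks, and the mitochondrial genome 4 in each. Of the 39 scaffolds with a peak, 20 were assembly scaffolds (names starting with GL456 or JH584) and 19 were patch scaffolds. The assembly scaffolds held 80 WT peaks (95% interval 63.4 to 99.6) and 100 KO peaks (81.4 to 121.6). The patch scaffolds held 103 (84.1 to 124.9) and 94 (75.96 to 115.03). Over all of these sequences the number of KO peaks was 1.06 times that of WT peaks (0.863 to 1.30), against 1.02 on the main chromosomes, which lies inside that interval. For 0 of the 39 scaffolds did the interval of the ratio exclude 1.02. However, 25 of them held 5 or fewer peaks in the lists together, too few for any split to exclude it. Most scaffolds, 30 of 39, had peaks in both lists. The 4 scaffolds with WT peaks alone held 5 peaks in all and the 5 with KO peaks alone held 5, with at most 2 on any of them.

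A few scaffolds held most of these peaks. The 10 leading scaffolds held 137 WT peaks (74.9% of those on scaffolds) and 144 KO peaks (74.2%), and the first 2, JH792827.1 and JH584304.1, held 61 and 65. JH792827.1, a patch scaffold, had 32 WT and 34 KO peaks. JH584304.1, an unplaced assembly scaffold, had 29 and 31. GL456233.1 had 20 and 18, JH792829.1 had 13 and 12, and KZ289068.1 had 11 and 12. KQ030491.1 had 10 and 8, KQ030484.1 had 6 and 8, and KV575234.1 had 8 and 5. GL456211.1 and GL456221.1 each had 4 in WT and 8 in KO, a ratio of 2 with an interval of 0.536 to 9.08, so counts this small do not resolve a difference.

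**Figure D1:**
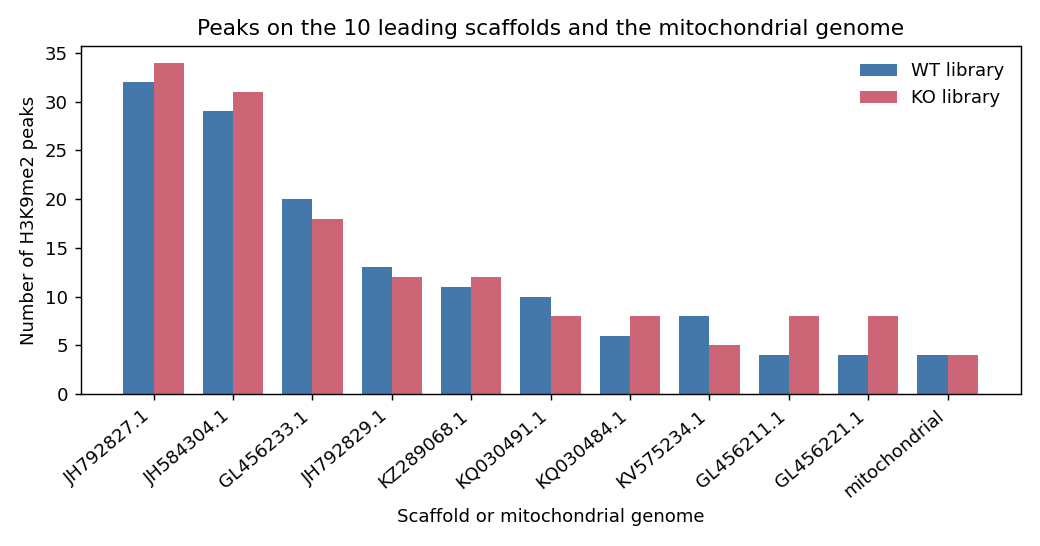
Number of H3K9me2 peaks (vertical axis) in the WT library (blue bars) and the KO library (red bars) on the 10 scaffolds with the most peaks and on the mitochondrial genome. JH792827.1 (32 and 34) and JH584304.1 (29 and 31) stand above the rest, and the bars of the libraries are of similar height on each of the first 5 scaffolds.

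The libraries placed these peaks at the same sites more often than peaks of the main chromosomes. Of the WT peaks, 129 of 187 (69.0%, exact Clopper-Pearson interval 61.8 to 75.5%) overlapped a KO peak by at least 1 bp, against 46.5% of the whole WT list and 46.4% (45.9 to 47.0%) on the main chromosomes. Of the KO peaks, 131 of 198 (66.2%, 59.1 to 72.7%) overlapped a WT peak, against 46.0% of the whole KO list and 45.9% (45.3 to 46.4%) on the main chromosomes. The base pairs in common were 94.2 kb, or 50.2% of those covered in either list, against 23.3% on the main chromosomes. Peaks off the main chromosomes were also more often highly significant. A q of 1e-05 or lower was reached by 77 WT peaks (41.2%, 34.0 to 48.6%) and 68 KO peaks (34.3%, 27.8 to 41.4%), against 13.2% and 8.26% of the whole lists.

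The overlap moved with significance and with the 2 leading scaffolds. Among peaks with a q above 1e-05, 58 of 110 WT peaks off the main chromosomes were overlapped (52.7%, 43.0 to 62.3%), against 41.7% of such peaks on the main chromosomes. Among those with a q of 1e-05 or lower, 71 of 77 were overlapped (92.2%, 83.8 to 97.1%), against 78.3%. Without JH584304.1 and JH792827.1, the share of the weaker WT peaks was 47.1% (36.3 to 58.1%), an interval that holds the value of the main chromosomes. For the weaker KO peaks it was 48.6% (38.7 to 58.5%) without these scaffolds, against 43.2%. For the stronger peaks without them it was 87.2% in WT (72.6 to 95.7%) and 89.3% in KO (71.8 to 97.7%). The main-chromosome shares of 78.3% and 75.8% lay inside these intervals. A matched share at equal local peak density was not computed.

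Peaks off the main chromosomes had higher median widths above d than those on them, but in KO the interval held the main-chromosome median. The median width above d was 270 bp in WT (218 to 338 bp, exact interval of the median) with quartiles of 96.5 and 672 bp, and 254.5 bp in KO (185 to 332 bp) with quartiles of 83.25 and 566 bp. On the main chromosomes the medians were 194 bp (191 to 198 bp) for WT and 187 bp (184 to 190 bp) for KO. The smallest possible width, d itself, was listed for 23 WT and 19 KO peaks. At 121 sites 1 WT and 1 KO peak met only each other. There WT minus KO width above d had a median of -28 bp (-55 to -1 bp), and the WT peak was the wider above d at 48. This interval runs over sites within 1 library per genotype. In listed widths, d included, each difference was 103 bp higher, so the direction rests on the subtraction of d. Peaks at least 1 kb wide above d made up 16.6% of these peaks in WT (31) and 14.6% in KO (29), against 2.92% and 2.59% on the main chromosomes. Assembly scaffolds had median widths above d of 339 bp (WT) and 290.5 bp (KO), and patch scaffolds of 218 and 223 bp. The patch intervals held the main-chromosome median in WT (172 to 296 bp) and KO (165 to 303 bp). The assembly interval held it in KO (175 to 373 bp) and not in WT (237 to 526 bp). Without JH584304.1 the medians off the main chromosomes were 245 bp in WT and 219 bp in KO.

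Pileup was high and fold enrichment was not. The median pileup of the peaks off the main chromosomes was 32.45 in WT, at percentile 77.0 of its list, and 25.05 in KO, at percentile 81.4. The median fold enrichment ranked at percentile 49.1 in WT and 42.7 in KO. Peaks in the top 5% of pileup made up 39.0% of these peaks in WT (73 of 187) and 40.9% in KO (81 of 198). In WT, 39 peaks were at once in the top 5% of pileup and the bottom 5% of fold enrichment, which was 10.8% of all 361 such peaks of the list. In KO there were 45 of 396, or 11.4%. These were mainly on JH584304.1 (24 in each library), JH792827.1 (7 and 12) and the mitochondrial genome (4 and 4).

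**Figure D2:**
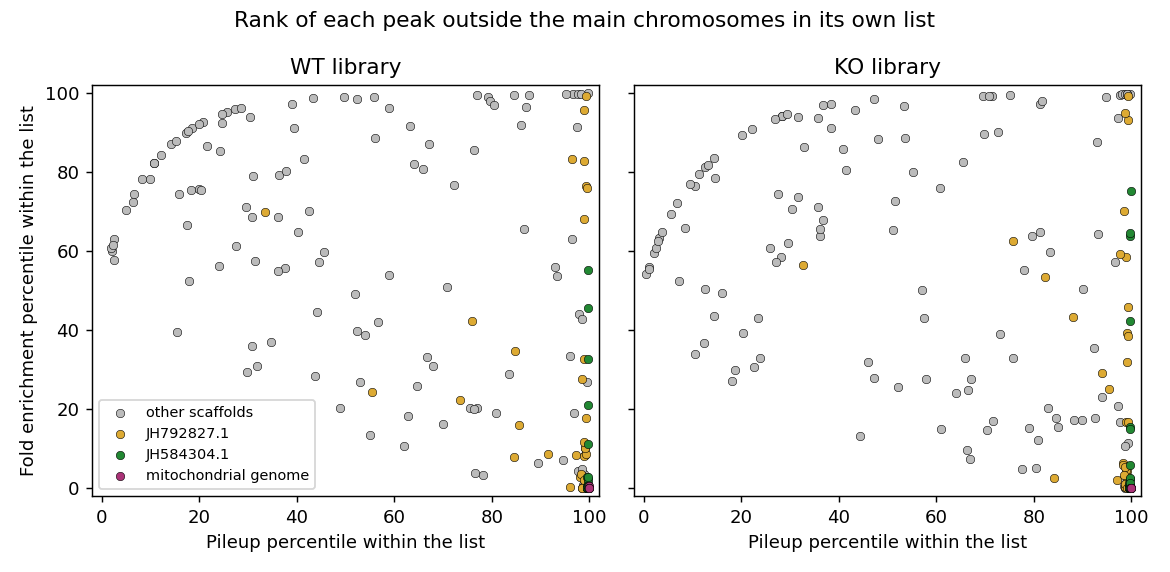
Percentile of pileup (horizontal axis) and of fold enrichment (vertical axis) of each peak outside the main chromosomes within its own list, WT on the left and KO on the right, with 1 point per peak. The mitochondrial peaks sit in the lower right corner, most peaks of JH584304.1 sit close to it, and the other scaffolds spread over both axes.

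The mitochondrial genome had 4 peaks in each library, all in the top 1% of pileup and in the bottom 5% of fold enrichment. In WT the first, from 126 to 1102, had a pileup of 381.6 and a fold enrichment of 1.99. The second, from 1879 to 5211, had 400.1 and 1.53, and the third, from 5951 to 6505, had 415.1 and 1.46. The last, from 12179 to 16161, had 452.4 and 1.87. In WT the median pileup was thus 16.1 times that of the list, and the median fold enrichment was at percentile 0.0880.

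The KO peaks drew nearly the same map. They ran from 79 to 1096 (pileup 360.0, fold enrichment 1.97), from 1843 to 6491 (390.65 and 1.52), from 11046 to 11313 (401 and 1.35) and from 12004 to 16165 (441.7 and 1.98). In KO the median pileup was 20.7 times that of the list. The peaks covered 8.85 kb in WT and 10.1 kb in KO, of which 8.83 kb were in common (87.3% of the base pairs covered in either). They covered 55.0% of their span in WT and 62.8% in KO. Some overlap therefore arises from coverage alone, and that part was not measured. The second KO peak spanned the WT peaks from 1879 to 5211 and from 5951 to 6505, and the short KO peak from 11046 to 11313 was the only 1 of the 8 without a partner.

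Most genes toward both ends of the mitochondrial map lay under peaks and most in the middle did not. Nuclear copies of mitochondrial DNA can trade reads with it, and their part in this map was not tested. Positions are those of the RefSeq table of GRCm38.p6, in which 37 mitochondrial genes are listed. In WT, 6 of the 13 protein-coding genes overlapped a peak, and in KO 7. ND1 and ND2, subunits of respiratory complex I, were fully covered in both libraries, as were ND6, also of complex I, and CYTB, the cytochrome b of complex III. ND5, another complex I subunit, was covered to 76.0% in WT and 85.6% in KO. COX1, the catalytic subunit of cytochrome c oxidase, was covered to 35.9% and 75.3%.

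The ribosomal RNA genes were covered in part. The small-subunit gene mt-Rnr1 was covered to 94.1% in WT and 99.1% in KO, and the large-subunit gene mt-Rnr2 to 50.9% and 52.8%. Of the 22 transfer RNA genes, 12 overlapped a peak in WT and 13 in KO. The last peak ran 739 bp in WT and 743 bp in KO past TrnP, the last annotated gene, into the stretch that holds the control region of replication and transcription. No peak in either library touched COX2 and COX3 of cytochrome c oxidase, ATP6 and ATP8 of the ATP synthase, or ND3 and ND4L of complex I. ND4 had none in WT and 19.4% of its length covered in KO. The WT gap ran from 6506 to 12178, or 5.67 kb, and the KO gap from 6492 to 11045, or 4.55 kb. The background window of 10 kb takes in much of this small genome. The background behind these peaks is not listed, and its part in their low fold enrichment was not tested.

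**Figure D3:**
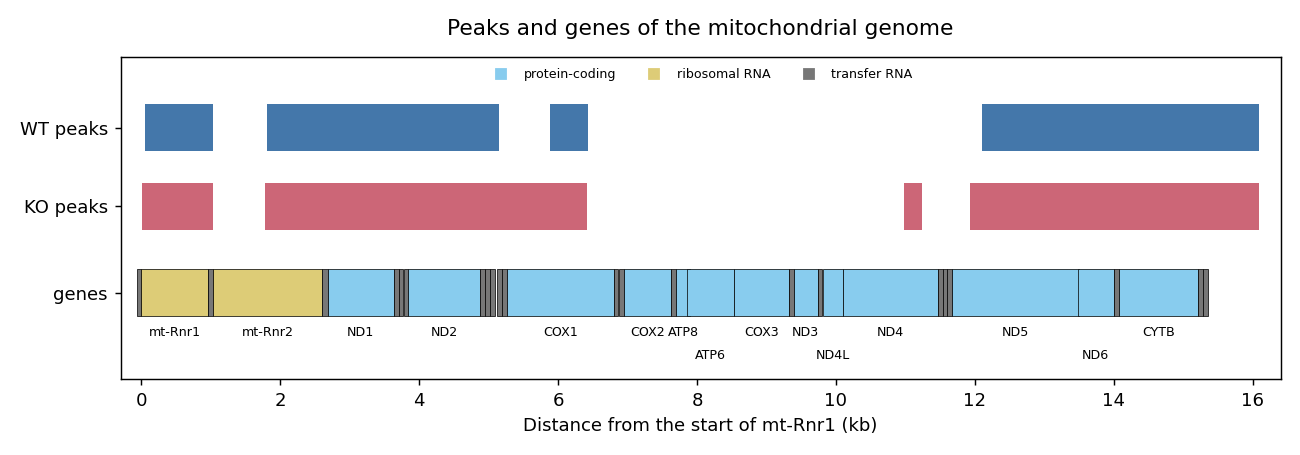
Peaks of the WT (blue) and KO (red) libraries above the genes of the mitochondrial genome, against distance from the start of mt-Rnr1 in kb. Blocks cover mt-Rnr1, ND1, ND2 and ND5 to CYTB in both libraries, and the middle of the map from COX2 to ND4L is empty in both.

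JH584304.1 was the scaffold most densely covered among the 10 leading ones. Its peaks lay between 1058 and 113452, and covered 33.1 kb in WT and 36.0 kb in KO, or 29.4% and 32.0% of that span. Of its WT peaks, 27 of 29 overlapped a KO peak, and 27 of 31 KO peaks overlapped a WT peak. The base pairs in common were 72.5% of those covered in either. With about 3 bases in 10 covered in each list, some overlap arises from density alone, and that part was not measured. The peaks were wide, with a median width above d of 789 bp in WT and 931 bp in KO.

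Every peak of JH584304.1 ranked in the top 1% of pileup. Pileup ran from 102.1 to 291.5 in WT with a median of 170.6, or 6.73 times the median of the list, and from 76.95 to 306.7 in KO with a median of 150.1, or 7.85 times. The median fold enrichment was 1.82 in WT (percentile 0.124) and 2.17 in KO (percentile 0.376). The tallest peak of any scaffold was the same site in both libraries, from 103107 to 104402 in WT with a pileup of 291.5 and a fold enrichment of 2.76, and from 103159 to 104511 in KO with 306.7 and 3.35. The widest was the peak from 53072 to 55869 in WT, 2506 bp above d, and the peak from 109064 to 113406 in KO, 4154 bp above d. In WT the place of that KO peak held 2 peaks, from 109021 to 111183 and from 111877 to 113452.

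The profile along JH584304.1 differed in shape between the libraries. No peak of either list lay from 59009 to 68554, and this gap of 9.55 kb, picked after the values were seen, splits the scaffold into a first and a second part. In WT the median pileup was 168.3 over the 14 peaks of the first part and 170.6 over the 15 of the second, a ratio of 1.01. In KO it was 126.6 over 14 peaks and 170.1 over 17, a ratio of 1.34. The KO pileups barely met, at 76.95 to 150.1 in the first part and 143.15 to 306.7 in the second, where 15 of 17 peaks exceeded the highest of the first part. In WT the ranges were 102.1 to 195.0 and 137.4 to 291.5, and 4 of 15 did so. The ratio of the second to the first part in median fold enrichment was 1.26 in WT and 1.43 in KO. These ratios are taken within a library, but d differed between the libraries, and its part in the change of shape was not tested.

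A q of 1e-05 or lower was reached on the second part by 14 of 15 WT and 17 of 17 KO peaks, and on the first part by 8 of 14 and 6 of 14. JH584304.1 had 24 such paired sites, where 1 peak of each list met only the other. At these sites WT minus KO width above d had a median of -96.5 bp (-259 to -13 bp). Like the other intervals of paired widths, it runs over sites within 1 library per genotype and does not measure a genotype difference. The WT peak was the wider above d at 5 of the 24 sites. At the 26 of JH792827.1 the median was -17 bp (-80 to 63 bp), and at the 14553 of the main chromosomes -12 bp (-17 to -7 bp). In listed widths, d included, each of these differences was 103 bp higher. The share of d in a listed width is not known.

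**Figure D4:**
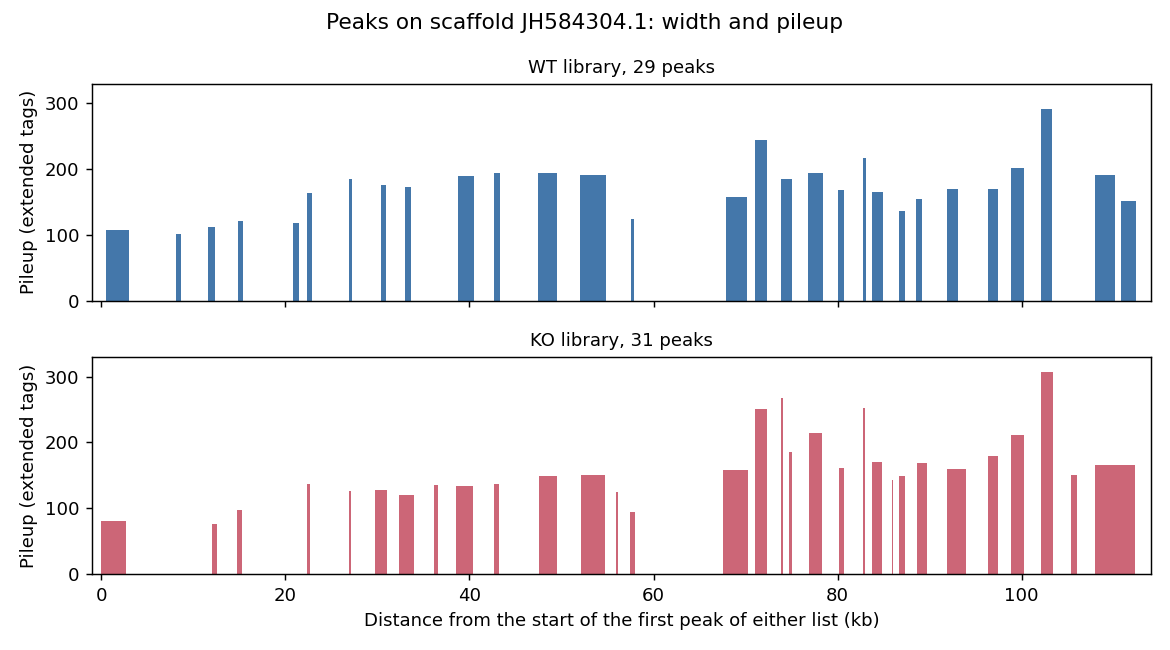
Peaks along scaffold JH584304.1 in the WT library (top) and the KO library (bottom), each drawn at its width against distance from the first peak in kb, with pileup in extended tags as the height. The left and right groups are of similar height in WT (medians 168.3 and 170.6), and the right group is taller in KO (126.6 and 170.1).

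The peaks of JH792827.1 repeated the spacing of peaks on chromosome 5. For each of the 13 scaffolds with at least 8 peaks in the lists together, all places and both orientations on chromosomes 1 to 19, X and Y were searched for the one where most scaffold peaks met a peak of the same library within 150 bp. JH792827.1 was the only 1 of the 13 whose best place was the same, within 1 kb, in both libraries. Many of the others had a tied best place in 1 or both libraries. On JH584304.1, for example, the best and the next place each met 8 peaks in both. Agreement could not be judged for tied scaffolds, so this does not show that JH792827.1 is unique. In WT 15 of its 32 peaks met a chromosome 5 peak at an offset of 15429648 bp, and the next best place in the genome gave 9. In KO 19 of 34 did so at an offset of 15429611 bp, 37 bp away, with 9 at the next best. As the best of all places these counts are a description and not a test.

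Paired peaks were of like height, most closely in KO. In KO the median ratio of scaffold to chromosome 5 pileup was 0.991, with a range of 0.847 to 1.18, and 17 of 19 pairs lay within 10% of equality. The scaffold peak from 32696 to 35212 had a pileup of 41.41 and its partner on chromosome 5 from 15462286 to 15464846 had 41.49, with widths of 2517 and 2561 bp. In WT the median ratio was 1.05 over 15 pairs, with a range of 0.706 to 1.34, and 7 lay within 10%. The scaffold peak from 42527 to 44018 had a pileup of 107.8 in WT against 90.5 for its partner from 15472140 to 15473578. Both members of a pair come from the same library, so these pileups share depth and d.

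The shared stretch did not cover the whole scaffold. In WT it ran over 160.6 kb of chromosome 5, from 15472140 to 15632714, where 15 of 20 chromosome 5 peaks and 15 of 23 scaffold peaks were paired. In KO it ran over 159.9 kb, from 15462286 to 15622183, with 19 of 26 and 19 of 24 paired. Before it lay 8 WT and 6 KO peaks of the scaffold. Of these, 1 WT peak overlapped a chromosome 5 peak at this offset with midpoints more than 150 bp apart, and the other 7 WT peaks and the 6 KO peaks met none. The pileups of JH792827.1 had medians of 60.8 in WT and 46.0 in KO, or 2.397 and 2.406 times those of the lists. The top 5% of pileup held 24 of its 32 WT and 28 of its 34 KO peaks, and 1 peak in each library was below the list's median. Its WT peaks were overlapped by KO peaks in 27 of 32 cases, and its KO peaks by WT peaks in 28 of 34.

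The chromosome 5 stretch holds 4 protein-coding genes in the RefSeq table of GRCm38.p6, the assembly behind mm10. Speer4d, from 15619099 to 15623864, belongs to the Speer family of glutamate-rich proteins expressed in testis. Its body held 1 chromosome 5 peak in each library, and the matching place on the scaffold also held 1 in each. Gm21149, from 15471706 to 15476536, and Gm21190, from 15524456 to 15529222, also had 1 peak in each library at both places. Gm21083, from 15577293 to 15582092, had 2 and 2 on chromosome 5, and 2 in WT and 3 in KO on the scaffold. Genes with close copies can trade reads, so the counts of these 4 are uncertain. Among long noncoding RNA genes the counts agreed less well. Gm30417 held 5 chromosome 5 peaks in WT and 4 in KO, against 6 and 8 at its place on the scaffold. Gm30613 held 5 and 7, against 5 and 6, and Gm21847 held 1 in each library at both places. The alignment settings for reads with more than 1 matching place are not given in the sources used here, and their part in these paired peaks was not tested.

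**Figure D5:**
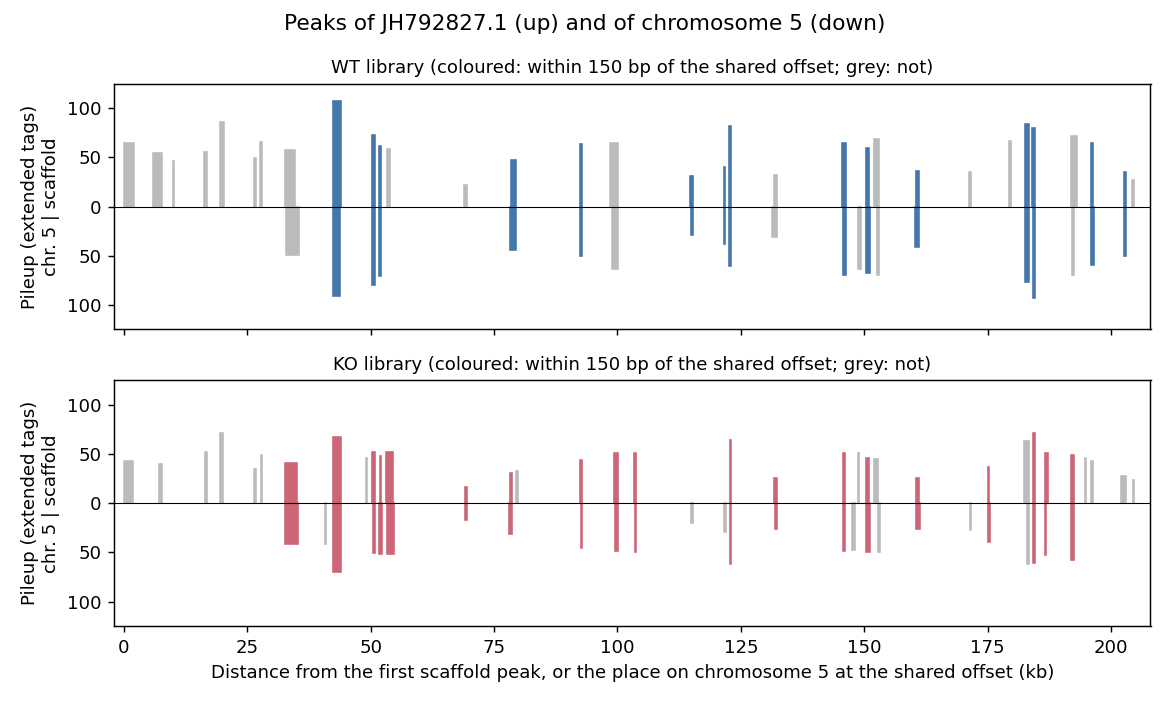
Peaks of JH792827.1 (upward bars) and of chromosome 5 at the shared offset (downward bars) in the WT library (top) and the KO library (bottom), against distance in kb, with pileup in extended tags as the height. Coloured bars are the 15 WT and 19 KO pairs within 150 bp of the offset, grey bars have no peak midpoint within that distance, and the leftmost upward bars have nothing below them.

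Some of the other leading scaffolds had median pileups below that of the list in both libraries. GL456233.1, an assembly scaffold, had median pileups 0.904 times that of the list in WT and 0.886 times in KO. Of its peaks, 11 of 20 in WT and 11 of 18 in KO were overlapped, and 28.7% of the covered base pairs were in common. KQ030484.1 and KV575234.1 were also low, with median pileups 0.782 and 0.792 times that of the list in WT and 0.770 and 0.837 times in KO. The peaks of KV575234.1 were spread over 593.9 kb, and 3 of 8 WT and 3 of 5 KO peaks were overlapped.

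KQ030491.1, a patch scaffold, was closer to the 2 leading ones. Its 10 WT and 8 KO peaks lay within 58.2 kb and covered 15.9% and 14.0% of it, 8 of 10 and 8 of 8 were overlapped, and 77.9% of the covered base pairs were in common. Its median pileup was 1.84 times that of the list in WT and 1.73 times in KO. JH792829.1 had medians 1.19 and 1.42 times those of the lists, with 9 of 13 WT and 10 of 12 KO peaks overlapped. On KZ289068.1, 8 of 11 and 8 of 12 were overlapped, and 51.7% of the covered base pairs were in common. Its median pileup was 0.904 times that of the list in WT and 1.19 times in KO. On GL456211.1, 1 of 4 WT and 1 of 8 KO peaks were overlapped, and on GL456221.1 3 of 4 and 3 of 8.

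A peak on the patch scaffold KQ030494.1 was the only one outside JH584304.1 among the 5 scaffold peaks of highest pileup in each library. It ran from 506221 to 506812 in WT, 300 bp wide above d, with a pileup of 231.4 and a fold enrichment of 14.9, and from 506299 to 506812 in KO, 325 bp above d, with 234.2 and 17.2. Both values ranked above percentile 99 in both lists, unlike the JH584304.1 peaks, whose fold enrichments were mostly low. It was the only peak of that scaffold in either library. Since the calling kept duplicates and used no control, a peak of this height need not mark H3K9me2. Whether duplicates were removed before the calling is not known.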

How the data were processed

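H3K9me2 CUT&Tag was deposited as 1 peak list per library, 2 in all, grouped here by genotype label. MACS2 2.2.7.1 was run by the authors on each library alone, per the file headers, in broad mode at q and broad cutoffs of 0.01. The caller kept duplicates, no control was given, and the regional background window was 10000 bp. The submitters' processing notes name Bowtie2 2.4.2, Picard and mm10, among others, without roles. The deposited pileup is a coverage signal that is not scaled between libraries, and deposited q-values and p-values are −log10. The deposited fold enrichment is a ratio to the background set by the caller. The deposited length includes d.

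Percentiles are ranks within a list. Intervals are exact (Clopper-Pearson, Poisson, conditional binomial, order statistics of the median). Overlap needed 1 bp. Work was done in Python 3.11.15 with SciPy 1.17.1, and the functions were tested on simulated data. Named were the 10 leading scaffolds, the 5 tallest and 5 widest scaffold peaks of each list, scaffolds of 1 list with at least 3 peaks (there were none), and mitochondrial genes. The reference table gives no scaffold names, so genes of scaffolds were not analysed here, and no sequence is shown. Members, lists and settings were chosen with earlier results of these data known. Coordinates count from 1.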

Additional observations from a re-analysis of the deposited data

How the results depend on the processing

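Of 48 alternative values, 31 stayed within 1.5 times the reported count or within the interval of the reported share or median, and 17 did not. At a q of 1e-05 or lower there were 77 WT and 68 KO peaks, median widths above d were 440 and 394.5 bp, and the WT pileup percentile was 92.6. Peaks of a listed width, d included, of at least 1 kb numbered 45 and 38, and those at least 1 kb wide above d, an alternative added after seeing the data, 31 and 29. Merging within 5 kb left 129 KO peaks. The ratio of KO to WT peak numbers was 0.844 to 1.06 over these settings, and each interval held 1. A reciprocal overlap of 50% gave overlapped shares of 51.9% in WT and 49.0% in KO. Ranking fold enrichment in place of pileup gave percentiles of 49.1 and 42.7. Without JH792827.1 the KO pileup percentile was 70.5, and without JH584304.1, an alternative chosen after seeing the data, it was 64.3 in WT and 70.7 in KO. The cause of these shifts was not tested beyond the fewer peaks that each setting keeps. No paired analysis was possible because each genotype had 1 library. Depth per scaffold is not in the lists, and a place without a peak is one where nothing passed the cutoff of the authors.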

Other observations

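Of the 39 scaffolds, 25 had 5 or fewer peaks in the lists together, and 8 had 1. Several of these small scaffolds carried wide peaks at the same place in both libraries, and 2 chosen after their values were seen are described. KZ289095.1 (1047 bp above d in WT and 1100 bp in KO) and GL456387.1 (1032 and 1446 bp) also had such a pair. On GL456392.1 the only peak ran from 21927 to 23386 in WT (1168 bp above d, fold enrichment 5.69, percentile 99.5) and from 22023 to 23390 in KO (1179 bp above d, 8.06, percentile 99.5). On JH584292.1 the only peak ran from 12676 to 14736 in WT (1769 bp above d, fold enrichment 3.59) and from 12584 to 14671 in KO (1899 bp above d, 3.596). GL456212.1, outside the 10 leading scaffolds, had 2 WT and 8 KO peaks, a ratio of 4 with an interval of 0.798 to 38.7.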
